A study of Mus musculus with 9 samples.

Results

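The genes described here are 36 members of the unfolded protein response and of the integrated stress response. They were chosen by name for their place in these pathways, with earlier results of these data known. Creb3l1 was listed because its value with NICD1 was known to be high. All 36 were found in both deposited tables, out of 18971 genes listed with JICD1 and 19287 with NICD1. The RNA came from Ink4a-/- astrocytes of mouse brain, grown in medium with fetal bovine serum. The cells carried pcDNA HA-JICD1 puro, pcDNA NICD puro, or the empty pcDNA puro vector as control, with 3 libraries in each group. JICD1 is the intracellular domain of Jagged1, a Notch ligand, and NICD1 is that of Notch1, a receptor. Every group, control included, lacks Ink4a. The sources used here do not say whether the cells are 1 clone or what share of them took up a construct.

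The unfolded protein response senses misfolded protein in the endoplasmic reticulum (ER) through a trio of membrane proteins. IRE1 (gene Ern1) splices Xbp1 messenger RNA so that it encodes an active transcription factor. ATF6 is cut in the Golgi and its freed part enters the nucleus, and PERK (gene Eif2ak3) phosphorylates the initiation factor eIF2-alpha. That phosphorylation, which other kinases share in the integrated stress response, favours translation of ATF4. ATF6 and XBP1 drive ER chaperones, disulfide isomerases and ER-associated degradation (ERAD), while ATF4 drives amino acid synthesis, transport and CHOP (gene Ddit3). Splicing of Xbp1, cutting of ATF6 and phosphorylation of eIF2-alpha cannot be read from a ratio per gene.

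For every gene the authors' deposited tables hold a single log2 ratio of a transfected group over control, with a score that runs from 0 to 1. Values of the 3 single libraries of a group were not analysed here, so replicate error, p-values and depth cannot be given for any ratio. Genes with a score of at least 0.8 are called scored, a threshold with no error rate attached. Higher, lower, above and below state only the sign of a ratio. Jag1 stood at -1.39 with HA-JICD1 and at 1.36 with NICD1 in the authors' deposited tables, and Notch1 stood at 1.33 with HA-JICD1 and at 1.77 with NICD1. Jag1 thus went against its label, though HA-JICD1 holds only the intracellular domain and how its reads were counted was not given. That group is therefore named as the libraries labelled JICD1, and each of its directions rests on the label.

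Levels are not in the tables, so the astrocyte label could not be checked against marker levels. Of 8 astrocyte markers 7 had a ratio with each construct, and Aqp4 had none. In the libraries labelled JICD1 4 of the 7 lay below control, with a median of -0.59, and none was scored. With NICD1 5 of the 7 lay below control, with a median of -0.69, and Sox9 was scored lower, at -1.64 (score 0.851) in the authors' deposited table. Markers of fibroblasts and pericytes were lower in the libraries labelled JICD1 in 5 of 5 measured genes, 4 of them scored, and in 4 of 6 with NICD1, 2 of them scored. Neuron markers were mixed, of which 1 was scored above and 1 below control in the libraries labelled JICD1, and 3 above and 1 below with NICD1. The microglia list had 1 scored member, lower in the libraries labelled JICD1, and the oligodendrocyte and endothelial lists had none with either construct. For comparison, 1.07% of all genes in the JICD1 table were scored above control, 1.74% were scored below it, and 54.5% had ratios above 0. The matching shares in the NICD1 table were 1.64%, 0.97% and 48.5%. In such bulk samples, fewer cells of a type and less RNA per cell cannot be told apart. The part of cell makeup in the ratios of the stress genes was not tested.

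Of the 36 members, Atf3 and Atf6 in the libraries labelled JICD1 and Creb3l1 with NICD1 had ratios of 2-fold or more. In the libraries labelled JICD1 no member was scored higher, against 1.07% of all genes, and none lower, against 1.74%. With NICD1, Creb3l1 was scored higher, where the share over all genes was 1.64%, and no member was scored lower, against 0.97%. Log2 ratios of 1 or more were found for 2 of 36 members in the libraries labelled JICD1, against 14.5% of all genes. None lay at -1 or below, against 14.4% of all genes. With NICD1 the count at 1 or more was 1 of 36, Creb3l1 itself, against 16.6% of all genes, and the count at -1 or below was 0, against 12.1%. Without Creb3l1 the NICD1 counts of scored and of 2-fold members were both 0 of 35.

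The middle 50% of all genes lay between log2 ratios of -0.43 and 0.50 with JICD1 and between -0.37 and 0.52 with NICD1. Within those limits were 29 of the 36 members in the libraries labelled JICD1 and 33 with NICD1. Over the 35 members other than Creb3l1 the median was 0.03 in the libraries labelled JICD1, against 0.05 over all genes. With NICD1 it was 0.17, against -0.02 over all genes. The lowest member other than Creb3l1 was Chac1 in the libraries labelled JICD1 and Asns with NICD1, and the highest were Atf3 and Atf6. The tables give no level by which to match the members with other genes, so the part of abundance in this range was not tested.

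**Figure D1:**
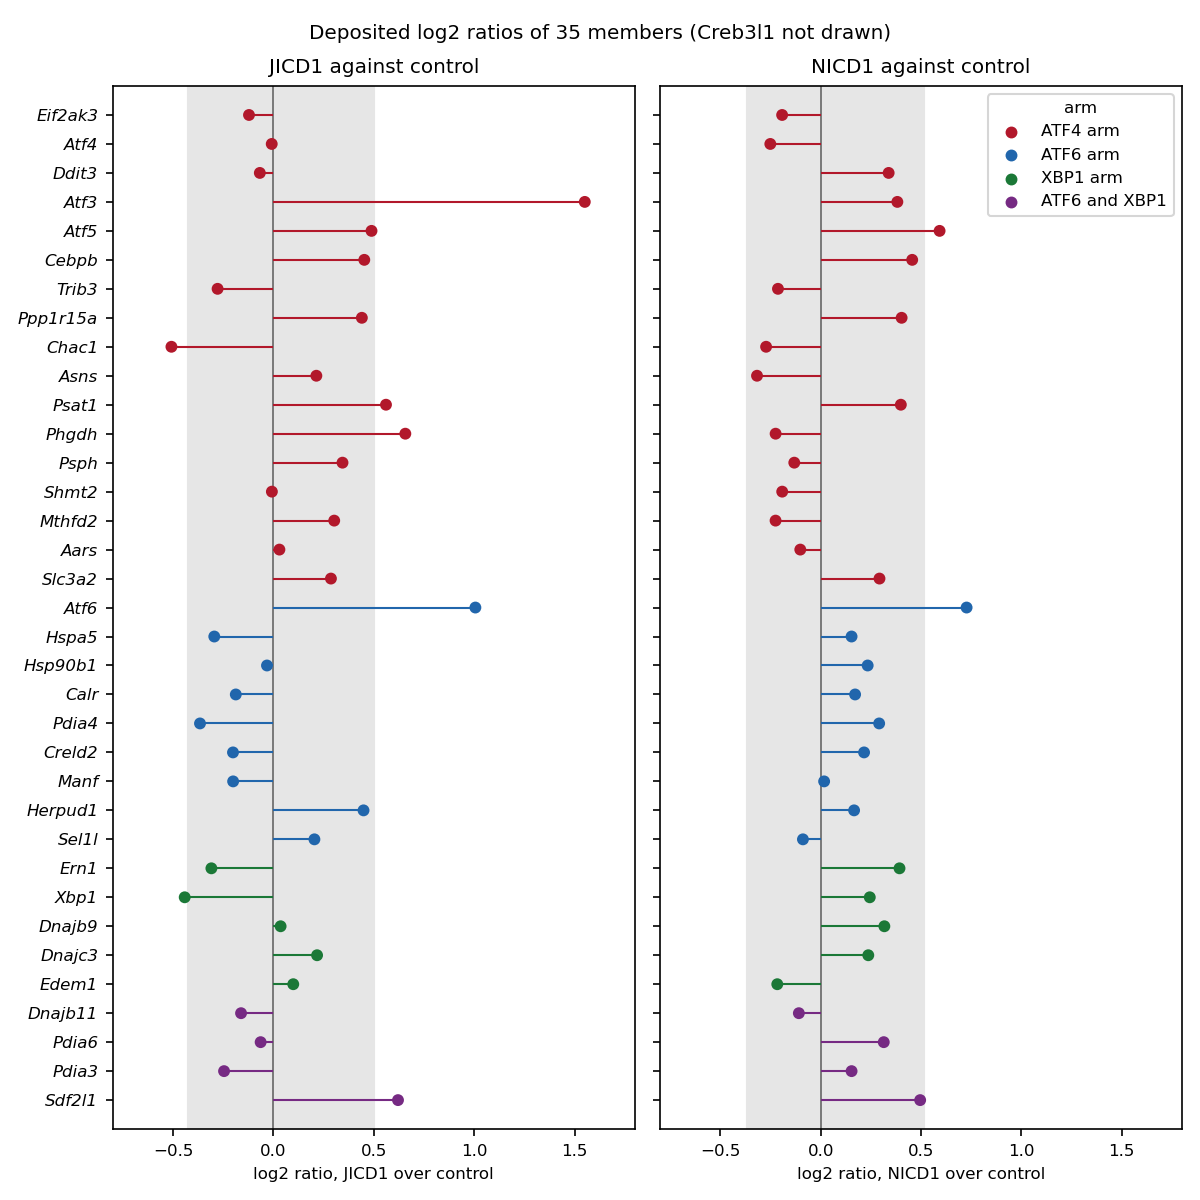
Deposited log2 ratio over control (x axis) of 35 members in rows, coloured by arm, in the libraries labelled JICD1 (left) and with NICD1 (right); the grey band holds the middle 50% of all genes. Atf3 (1.55) and Atf6 (1.01) stand out to the right in the JICD1 panel, and no member passes 1 in the NICD1 panel, where Creb3l1 at 9.96 is not drawn.

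The arms had different medians, with small differences. Both constructs were set against the same control libraries, so their ratios are not independent. The ATF4 arm (17 genes) had a median log2 ratio of 0.29 in the libraries labelled JICD1 and of -0.13 with NICD1. The ATF6 arm (9 genes) had -0.19 in the libraries labelled JICD1 and 0.17 with NICD1. The XBP1 arm (5 genes) had 0.04 in the libraries labelled JICD1 and 0.24 with NICD1. The 4 genes counted to both ER arms had -0.11 in the libraries labelled JICD1 and 0.23 with NICD1. Medians and means did not always share a sign. In the libraries labelled JICD1 the means were 0.04 for the ATF6 arm, -0.08 for the XBP1 arm and 0.04 for the genes of both ER arms. With NICD1 the ATF4 arm had a mean of 0.04. The XBP1 median in the libraries labelled JICD1 was -0.0097 once the median of all genes was subtracted. The sign of an arm is thus set by a few genes in these cases, and the arms overlap in what they drive.

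The sensors and their transcription factors stand at the head of the pathway, and among them Atf6 had the largest ratios. Atf6 encodes the sensor that is itself the transcription factor of its arm. It had a log2 ratio of 1.01 (2.01-fold, score 0.785) in the libraries labelled JICD1 and of 0.73 (1.66-fold, score 0.731) with NICD1 in the authors' deposited tables. Its score in the JICD1 table was the highest of the 36 members and lay just under the threshold. Ern1, the gene of the kinase and endonuclease IRE1, stood at -0.31 in the libraries labelled JICD1 and at 0.39 with NICD1 in the authors' deposited tables. Xbp1, whose transcript IRE1 splices, stood at -0.44 (score 0.668) in the libraries labelled JICD1 and at 0.24 (score 0.560) with NICD1 in the authors' deposited tables. Xbp1 and Ern1 were thus below control in the libraries labelled JICD1 and above it with NICD1, and neither was scored. Eif2ak3, the gene of the kinase PERK, lay near control with both, at -0.12 (labelled JICD1) and -0.19 (NICD1) in the authors' deposited tables.

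The 15 ER chaperone, folding and ERAD genes are common targets of ATF6 and XBP1. Of these, 8 lay below control in the libraries labelled JICD1 and above it with NICD1, and 7 did not. The share of all genes with that pair of signs was not computed, and no gene of the 15 was scored with either construct. Hspa5, the gene of the main ER Hsp70 chaperone BiP, stood at -0.29 (score 0.608) in the libraries labelled JICD1 and at 0.15 (score 0.476) with NICD1 in the authors' deposited tables. Pdia4, a disulfide isomerase gene, had the lowest ratio of the ATF6 arm in the libraries labelled JICD1, -0.37, against 0.29 with NICD1 in the authors' deposited tables. Calr, which encodes the lectin chaperone calreticulin, stood at -0.19 (labelled JICD1) and 0.17 (NICD1), and Hsp90b1, the gene of the ER Hsp90 GRP94, at -0.03 (labelled JICD1) and 0.23 (NICD1) in the authors' deposited tables. Creld2, an ER protein gene induced by ER stress, had -0.20 (labelled JICD1) and 0.22 (NICD1) in the authors' deposited tables. Manf, the gene of a secreted protective factor held in the ER, had -0.20 (labelled JICD1) and 0.02 (NICD1) in the authors' deposited tables. These 6 genes of the ATF6 arm, described together because of their signs, lay below control in the libraries labelled JICD1 and above it with NICD1, while Herpud1 and Sel1l of the same arm did not.

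The other ER targets varied in direction. Sdf2l1, which encodes a partner of BiP, was above control with both constructs, at 0.62 (score 0.715) in the libraries labelled JICD1 and 0.50 (score 0.684) with NICD1 in the authors' deposited tables. Herpud1, an ERAD scaffold gene, stood at 0.45 (labelled JICD1) and 0.17 (NICD1), and Sel1l, the gene of an adaptor of the ERAD ligase, at 0.20 (labelled JICD1) and -0.09 (NICD1) in the authors' deposited tables. The disulfide isomerase genes Pdia6 (-0.06 labelled JICD1, 0.31 NICD1) and Pdia3 (-0.25 labelled JICD1, 0.15 NICD1) resembled Hspa5 in direction in the authors' deposited tables. Dnajb11, a BiP co-chaperone gene, lay below control with both, at -0.16 (labelled JICD1) and -0.11 (NICD1) in the authors' deposited tables. Among XBP1 targets, the BiP co-chaperone genes Dnajb9 (0.04 labelled JICD1, 0.32 NICD1) and Dnajc3 (0.22 labelled JICD1, 0.24 NICD1) lay above control with both in the authors' deposited tables. Edem1, which encodes a mannosidase-like ERAD factor, stood at 0.10 (labelled JICD1) and -0.22 (NICD1) in the authors' deposited tables. Of the 15 ER targets 9 lay below 0 in the libraries labelled JICD1, where 54.5% of all genes lay above 0. With NICD1 12 of the 15 lay above 0, where 48.5% of all genes did.

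The letters of the ER stress response element (ERSE), through which ATF6 and XBP1 act with NF-Y, were looked for because these genes are listed by that control. The motif searched was CCAAT, then any 9 bases, then CCACG, on both strands, in RefSeq promoter windows of GRCm38.p6 that run from 250 bases before to 50 after a start site. Windows were found for 33 of the 36 members; Atf6, Manf and Creb3l1 had none in that table. An ERSE match was present for 6 of the 33 members, in 6 of their 35 windows, and in 0.119% of the 32851 windows searched. The windows searched leave out those of a single chromosome. The matches lay in 4 of 7 ATF6 arm genes, 1 of 5 XBP1 arm genes, 1 of 4 genes of both arms and none of 17 ATF4 arm genes. They are shown with 6 bases on each side, read 5′ to 3′ on the strand of the match, with the fixed letters of the motif in capitals.
Calr: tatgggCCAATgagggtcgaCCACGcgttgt
Creld2: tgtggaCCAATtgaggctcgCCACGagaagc
Hsp90b1: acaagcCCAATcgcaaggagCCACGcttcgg
Hsp90b1: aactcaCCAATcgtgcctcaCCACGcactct
Hspa5: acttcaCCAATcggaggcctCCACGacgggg
Dnajc3: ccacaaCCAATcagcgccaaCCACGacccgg
Pdia6: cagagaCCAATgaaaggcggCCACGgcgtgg

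These stretches lie in Calr on chr8:84847069-84847099 (plus strand), Creld2 on chr15:88819514-88819544 (minus strand), Hsp90b1 on chr10:86705632-86705662 (minus strand), Hsp90b1 on chr10:86705527-86705557 (plus strand), Hspa5 on chr2:34772019-34772049 (plus strand), Dnajc3 on chr14:118937821-118937851 (plus strand) and Pdia6 on chr12:17266485-17266515 (plus strand) of GRCm38.p6. In Hspa5 the match starts at position -65 from the start site. The whole Hspa5 window is shown because expression of this chaperone gene is a usual reading of ER stress. It is chr2:34771840-34772139 on the plus strand of GRCm38.p6. Only the exact ERSE match is in capitals, and near matches were neither searched nor marked.
Hspa5: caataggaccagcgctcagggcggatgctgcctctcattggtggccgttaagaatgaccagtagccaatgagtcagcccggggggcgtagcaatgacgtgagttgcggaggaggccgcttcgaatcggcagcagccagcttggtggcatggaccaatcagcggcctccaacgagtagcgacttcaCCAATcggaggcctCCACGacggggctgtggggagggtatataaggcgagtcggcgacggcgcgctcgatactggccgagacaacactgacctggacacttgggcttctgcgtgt

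Of the 6 genes with an ERSE match, Dnajc3 had ratios above control with both constructs and the other 5 lay below control in the libraries labelled JICD1 and above it with NICD1. Among ER targets whose windows held no exact match to that motif, Pdia4 and Pdia3 had that same pair of signs. Herpud1, Sel1l, Sdf2l1, Dnajb11, Dnajb9 and Edem1 did not. The share of all genes with that pair was not computed, and a link between the element and the ratios was not tested. The shorter element TGACGTGG, bound by XBP1 and ATF6, was in none of the 33 members' windows and in 0.676% of the windows searched. A match describes the letters only, and the window is short. Other spacings of these letters were not searched, so a window without a match can still hold a related element. For instance, the windows of Herpud1 and Dnajb11 hold ATTGG and CCACG a single base apart. That form was not counted over the windows searched.

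**Figure D2:**
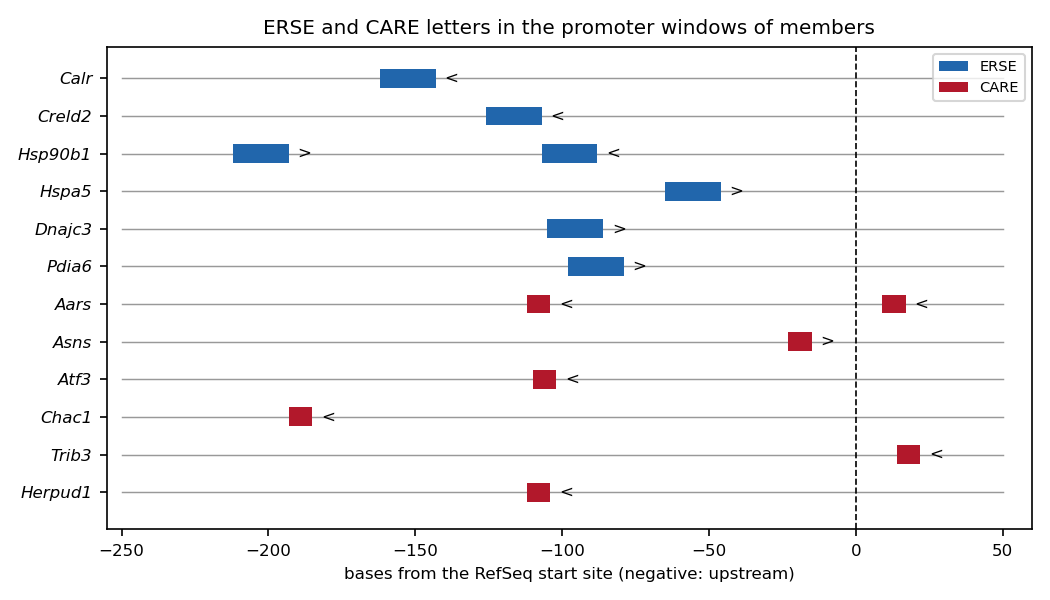
Place of the ERSE letters (blue) and of the C/EBP-ATF element CARE (red) in the promoter windows of 12 members, in bases from the start site (x axis, negative upstream); arrowheads give the orientation relative to the gene. The ERSE matches start between positions -212 and -65, and the CARE matches include 2 just downstream, in Aars and Trib3.

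The regulators of the ATF4 arm showed no common direction. Atf4 itself stood at -0.0085 (score 0.168) in the libraries labelled JICD1 and at -0.25 (score 0.589) with NICD1 in the authors' deposited tables. Ddit3, the gene of the transcription factor CHOP, stood at -0.07 (labelled JICD1) and 0.34 (NICD1) in the authors' deposited tables. Atf3, a stress-induced transcription factor gene downstream of ATF4, had the highest ratio of all members in the libraries labelled JICD1, 1.55 (2.93-fold, score 0.711), and 0.38 (score 0.335) with NICD1 in the authors' deposited tables. Atf5, another bZIP factor gene under translational control, was above control with both, at 0.49 (score 0.698, labelled JICD1) and 0.59 (score 0.735, NICD1) in the authors' deposited tables. Cebpb, a partner of ATF4 on DNA, stood at 0.45 (labelled JICD1) and 0.46 (NICD1), and Ppp1r15a, which encodes the phosphatase subunit GADD34 that ends eIF2-alpha phosphorylation, at 0.44 (labelled JICD1) and 0.40 (NICD1) in the authors' deposited tables. The feedback inhibitor gene Trib3 was below control with both, at -0.28 (labelled JICD1) and -0.21 (NICD1) in the authors' deposited tables. Chac1, a glutathione-degrading enzyme gene much used as a readout of ATF4, had the lowest ratio of all members in the libraries labelled JICD1, -0.51 (score 0.678), and -0.27 with NICD1 in the authors' deposited tables. With Eif2ak3 counted among them, 4 of 9 regulators lay above control in the libraries labelled JICD1, where 54.5% of all genes did. With NICD1 5 of 9 did, against 48.5% of all genes.

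The amino acid and one-carbon genes of the ATF4 arm differed more by construct. Phgdh, the first enzyme of serine synthesis, stood at 0.66 (1.58-fold, score 0.750) in the libraries labelled JICD1 and at -0.22 (score 0.554) with NICD1 in the authors' deposited tables. Psat1, the next enzyme, was above control with both, at 0.56 (score 0.727, labelled JICD1) and 0.40 (score 0.683, NICD1) in the authors' deposited tables. Psph, which completes the pathway, stood at 0.34 (labelled JICD1) and -0.13 (NICD1) in the authors' deposited tables. Of the mitochondrial folate genes, Mthfd2 stood at 0.30 (labelled JICD1) and -0.22 (NICD1) and Shmt2 at -0.0077 (labelled JICD1) and -0.19 (NICD1) in the authors' deposited tables. Asns, the asparagine synthetase gene, stood at 0.21 (labelled JICD1) and -0.32 (NICD1), and the alanyl-tRNA synthetase gene Aars at 0.03 (labelled JICD1) and -0.10 (NICD1) in the authors' deposited tables. Slc3a2, the heavy chain gene of amino acid exchangers, had 0.29 in the libraries labelled JICD1 and 0.29 with NICD1 in the authors' deposited tables. Of these 8 genes, 7 lay above control in the libraries labelled JICD1, with a median of 0.29, where 54.5% of all genes did. With NICD1 2 lay above control, with a median of -0.16, where 48.5% of all genes did. No gene of the 8 was scored, and they were grouped with the values known.

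ATF4 and its partners act through the C/EBP-ATF response element (CARE), searched as TGATGNAA on both strands. The motif was found for 6 of the 33 members, 5 of them in the ATF4 arm. It was in 6 of the members' 35 windows and in 3.97% of the windows searched. The matches are given with 6 bases on each side, 5′ to 3′ on the strand of the match, fixed letters in capitals; Aars has 2.
Aars: ctcggcTGATGcAAtgctca
Aars: gcgctcTGATGaAAagtgac
Asns: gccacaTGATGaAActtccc
Atf3: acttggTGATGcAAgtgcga
Chac1: caggagTGATGcAAcggcag
Trib3: cccggcTGATGtAAacctga
Herpud1: gcgggcTGATGcAAcccgcc

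They lie in Aars on chr8:111033724-111033743 (minus strand), Aars on chr8:111033845-111033864 (minus strand), Asns on chr6:7693219-7693238 (minus strand), Atf3 on chr1:191183430-191183449 (plus strand), Chac1 on chr2:119351043-119351062 (minus strand), Trib3 on chr2:152344033-152344052 (plus strand) and Herpud1 on chr8:94386311-94386330 (minus strand) of GRCm38.p6. The window of Atf3, chr1:191183284-191183583 on the minus strand of GRCm38.p6, is shown whole as that of the member with the highest ratio in the libraries labelled JICD1. Its CARE letters, in capitals, run opposite to the gene, with their upstream edge at position -110.
Atf3: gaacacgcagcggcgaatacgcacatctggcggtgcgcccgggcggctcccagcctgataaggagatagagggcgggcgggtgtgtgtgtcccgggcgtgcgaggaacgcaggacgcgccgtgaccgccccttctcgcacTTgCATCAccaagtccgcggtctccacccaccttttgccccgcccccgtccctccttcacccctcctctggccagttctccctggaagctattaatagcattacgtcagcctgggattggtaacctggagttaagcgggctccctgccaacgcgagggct

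The 5 ATF4 arm genes with a match had unlike ratios in the libraries labelled JICD1, from -0.51 for Chac1 to 1.55 for Atf3 in the authors' deposited tables. With NICD1 they ran from -0.32 for Asns to 0.38 for Atf3 in the authors' deposited tables.

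Creb3l1 encodes OASIS, an ER membrane bZIP factor of the CREB3 family that is cut in the Golgi like ATF6. It was first described in cultured mouse astrocytes, and in mouse bone it drives type I collagen. With NICD1, Creb3l1 (gene ID 26427) had a log2 ratio of 9.96 (score 0.996) in the authors' deposited table. A smaller absolute ratio was found for 99.98% of the genes listed there. In the libraries labelled JICD1 its log2 ratio was 0.42 and its score 0.169 in the authors' deposited table. That score was low for its ratio, as 7.33% of the 300 genes nearest in absolute ratio had a lower one, and their median score was 0.524. Since Creb3l1 was listed for its NICD1 value, this is a description and no support for a wider response. No fold is given, because a control value at or near 0 would make the ratio depend on how the zero was replaced, and the tables do not say.

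The other CREB3 family genes did not show a ratio of that size. Creb3 stood at 0.17 in the libraries labelled JICD1 and 0.37 with NICD1, and Creb3l2 at -0.19 (labelled JICD1) and 0.22 (NICD1) in the authors' deposited tables. Creb3l3 stood at -0.83 (labelled JICD1) and -1.36 (NICD1) and Creb3l4 at 1.35 (labelled JICD1) and 1.10 (NICD1) in the authors' deposited tables, with scores from 0.190 to 0.413. None of these 4 genes, named after their values were seen, was scored.

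The scores of most other members ran the other way from that of Creb3l1 in the JICD1 table. Each member was set beside the 300 genes nearest to it in absolute ratio. Of the 36 members, 32 scored above the median of those genes in each table. Atf4, for one, scored 0.168 at a ratio of almost 0 in the libraries labelled JICD1, above 99.3% of its nearest genes, in the authors' deposited tables. Pdia3 scored 0.575 and Calr 0.511 there, above 99.7% and 99.3%. Atf6, nearest to the threshold, scored above 92.0% of its nearest genes in the JICD1 table and Atf3 above 86.7%. With NICD1, Atf3 at 0.335 scored above 24.7%. Eif2ak3 was low in both tables, above 33.3% of its nearest genes with the JICD1 label and 26.0% with NICD1. Ern1 (46.0%) and Dnajb9 (49.0%) also lay below the median of their nearest genes in the JICD1 table. Ppp1r15a (46.0%) and Psph (48.3%) did so with NICD1. How the score takes in read number and replicate spread was not stated.

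**Figure D3:**
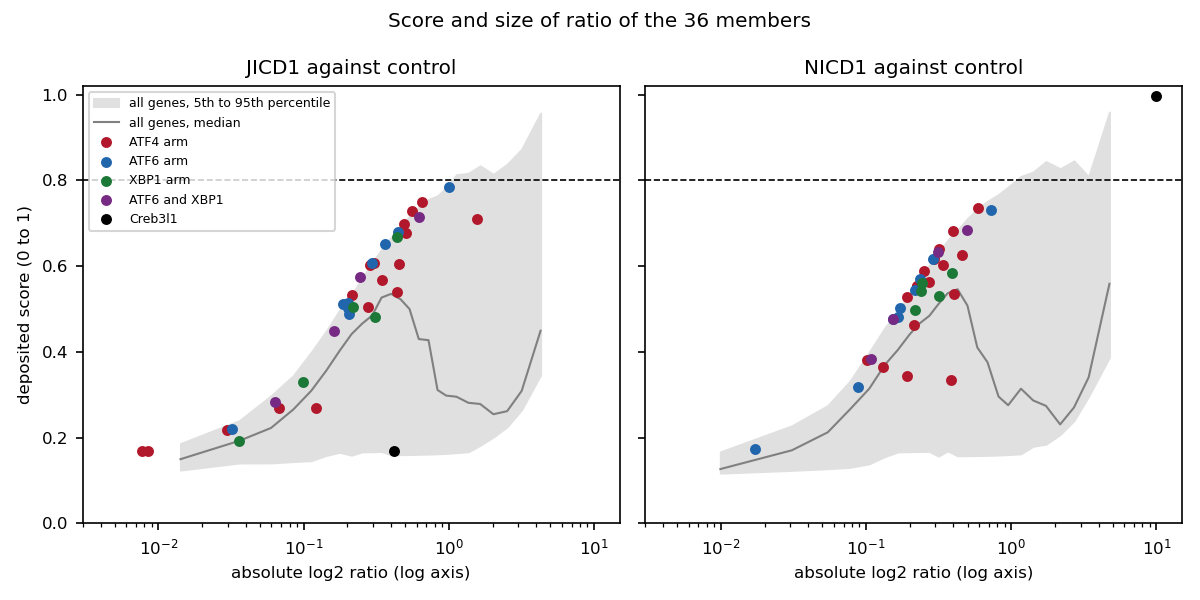
Deposited score (y axis, 0 to 1) against absolute log2 ratio (x axis, log scale) of the 36 members in the JICD1 (left) and NICD1 (right) tables; the grey band spans the 5th to 95th percentile of all genes of like ratio, the grey line their median, and the dashed line is at 0.8. Creb3l1 is low in the left panel at 0.169 and alone above the dashed line in the right one at 0.996.

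Beyond the members, 38 other genes of the integrated stress response and 34 of ER folding, ERAD and the CREB3 family were listed by function. These lists were made with earlier results of these data known. The integrated stress response list had a median of 0.06 in the libraries labelled JICD1, with 2 of 38 genes scored higher, against 1.07% of all genes, and 2 lower, against 1.74%. With NICD1 its median was 0.0086, with 2 of 37 measured genes scored higher, against 1.64% of all genes, and none lower, against 0.97%. Cth, the cystathionine gamma-lyase gene of cysteine synthesis, was scored with both constructs, at 1.64 (3.12-fold, score 0.802, labelled JICD1) and 1.60 (3.03-fold, score 0.805, NICD1) in the authors' deposited tables. Aldh1l2, a mitochondrial folate enzyme gene, was scored in the libraries labelled JICD1 at 1.23 (score 0.821), against 0.52 with NICD1 in the authors' deposited tables. Nupr1, a stress-induced chromatin protein gene, was scored lower in the libraries labelled JICD1 at -2.60 (score 0.883), against 0.34 with NICD1 in the authors' deposited tables. Ddit4, the gene of the mTORC1 inhibitor REDD1, was scored lower at -1.13 (score 0.808) in the libraries labelled JICD1, against 0.02 with NICD1 in the authors' deposited tables. Tars, the threonyl-tRNA synthetase gene, stood at -0.33 in the libraries labelled JICD1 and was scored higher with NICD1, at 1.65 (3.14-fold, score 0.861), in the authors' deposited tables.

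Tars stood apart from its class in the NICD1 table. Of 12 tRNA synthetase genes, Aars among them, the other 11 ranged with NICD1 within the central 50% of all genes, and the median of the 12 was 0.00077. A pair of genes for secreted stress factors had large ratios without a score of 0.8, and both are named because of those values. Gdf15 stood at 3.14 (score 0.411) in the libraries labelled JICD1 and 3.30 (score 0.443) with NICD1 in the authors' deposited tables. Fgf21 stood at -4.39 (score 0.767, labelled JICD1) and -1.43 (score 0.602, NICD1) in the authors' deposited tables. Both are classical ATF4 targets, and they went in opposite directions.

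The ER list had a median of 0.01 in the libraries labelled JICD1, with 17 of 34 genes above 0, against 54.5% of all genes. With NICD1 its median was 0.16, with 23 of 34 above 0. The list's single scored gene was Wfs1, which encodes the ER membrane protein wolframin. It stood at -1.44 (score 0.807) in the libraries labelled JICD1 and -0.56 (score 0.674) with NICD1 in the authors' deposited tables. Thus 1 of 34 genes was scored lower in the libraries labelled JICD1, against 1.74% of all genes, and none higher, against 1.07%. With NICD1 none was scored higher, against 1.64%, or lower, against 0.97%. The share above 0 with NICD1 was 67.6%, where 48.5% of all genes lay above 0. Since the list was made with earlier results known, it is no independent support for the 12 of 15 ER targets among the members.

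**Figure D4:**
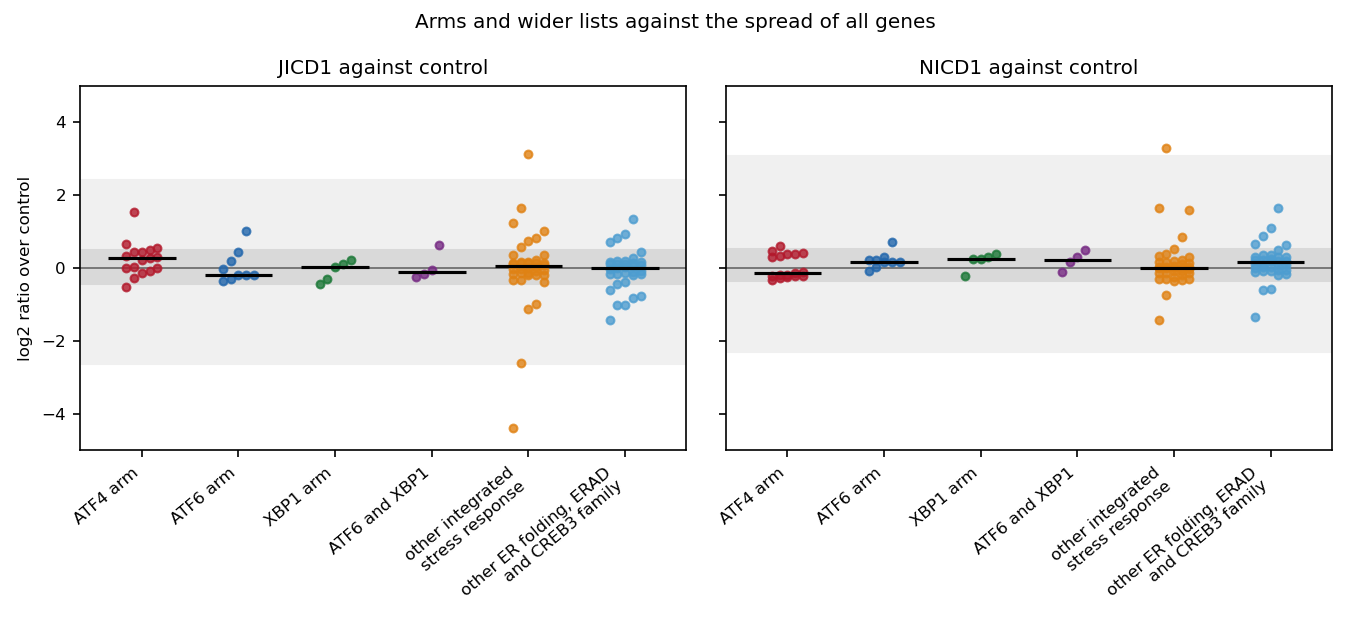
Log2 ratio over control (y axis) of every gene of the 4 arms and of both wider lists, in the libraries labelled JICD1 (left) and with NICD1 (right); each point is a gene, the black bar is the list median, and the dark and light grey bands hold the middle 50% and 90% of all genes. The list medians lie between -0.19 and 0.29 in both panels, and the points beyond the light band are Fgf21 and Gdf15, with Nupr1 near its edge, in the left panel and Gdf15 in the right.

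The constructs were set against each other by subtracting the deposited log2 ratios, JICD1 minus NICD1, in which the shared control cancels; no score exists for this value. Over the 18182 genes in both tables the median difference was 0.04. The difference was 1 or more for 1 of 36 members, Atf3 at 1.17, against 10.6% of all genes. It was -1 or less for 1 of 36, Creb3l1 at -9.54, against 13.6%. The next largest differences above 0 were those of the metabolic genes Phgdh (0.88), Asns (0.53), Mthfd2 (0.53) and Psph (0.48). Below 0 they were those of Ern1 (-0.70), Xbp1 (-0.69), Pdia4 (-0.66), Hspa5 (-0.45) and Creld2 (-0.42).

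By arm, the median difference was 0.13 for the ATF4 arm, -0.27 for the ATF6 arm, -0.28 for the XBP1 arm and -0.22 for the genes of both ER arms. Among the 8 metabolic ATF4 genes 7 were higher in the libraries labelled JICD1 than with NICD1, with a median of 0.33, whereas 52.5% of all genes were. Of the 15 ER targets 11 were lower in the libraries labelled JICD1 than with NICD1, with a median of -0.27, whereas 43.7% of all genes were. These roles were grouped with the values known, so the counts describe the tables and test nothing. With no value per library, it cannot be said whether any of these differences exceeds the spread between replicates.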

How the data were processed

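RNA-seq of 9 libraries, 3 per group, was analysed from the authors' deposited tables. Per the submitters' processing notes, Bowtie2, BWA and mm9 were used, without roles or versions; how reads were counted and replicates combined was not given in the sources used here. Per the file headers, the values are log2 ratios over control for each construct. The authors deposited a score from 0 to 1 beside each ratio, called Probability in the header; how it was made is not stated, and it was not read as a p-value. Its Spearman correlation with the absolute ratio across genes was 0.31 for JICD1 and 0.33 for NICD1, so large ratios can have low scores.

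Members were matched by the tables' symbol (14) or by gene ID through RefSeq and GENCODE names of GRCm38 (22). That build is not mm9, and served for names and promoter letters; no coordinate comes from the tables. Members, arms and lists were chosen with earlier results of these data known, and Creb3l1 for its NICD1 ratio. The rule named all members and, of the wider lists, genes with a score of 0.8 or more; Gdf15, Fgf21 and the other CREB3 family genes were added after their values were seen. No test could be computed, and none is reported. Medians, counts and motif matches were computed with Python 3.11.15 and pandas 2.3.3 and checked on simulated data. Alternatives changed the score threshold, the fold, the centring, the average, the naming and the arms.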

Additional observations from a re-analysis of the deposited data

How the results depend on the processing

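No paired analysis was possible because the tables used here give the libraries of a group as 1 ratio; for the same reason leaving out each replicate was not run, and depth and replicate error limit every value in a way that cannot be measured here. A score threshold of 0.9, a score of 0.8 with an absolute log2 ratio of 1, and the tables' own symbols can only remove scored members; they kept the 1 for NICD1 and, with 0 to start from, say nothing about the libraries labelled JICD1. A score threshold of 0.7 gave 5 of 36 for the libraries labelled JICD1, against 8.61% of all genes, and 3 of 36 for NICD1, against 7.82%; without Creb3l1, an alternative added after seeing the data, the NICD1 counts of scored and of 2-fold members were 0 and 0. At a fold of 1.5 in either direction the counts were 4 for the libraries labelled JICD1, against 43.7% of all genes, and 3 for NICD1, against 41.9%; with the median of all genes subtracted the JICD1 count at 2-fold was 1, since Atf6 lies at the limit.

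With no replicate spread to judge by, every move of an arm median at 2 decimals is given, in the order ATF4, ATF6, XBP1 and both ER arms. With the median of all genes subtracted, they were 0.24, -0.23, -0.0097 and -0.16 in the libraries labelled JICD1, where the XBP1 median turned sign, and -0.12, 0.19, 0.26 and 0.25 with NICD1. Means were 0.26, 0.042, -0.080 and 0.037 in the libraries labelled JICD1, of which the last 3 turned sign, and 0.044, 0.21, 0.20 and 0.21 with NICD1, of which the first did. Among members with a score of 0.3 or more, the JICD1 medians were 0.39 for ATF4, -0.11 for XBP1 (turned) and -0.16 for both ER arms, and the NICD1 median of ATF6 was 0.19. With the genes of both ER arms added, the JICD1 medians were -0.16 for ATF6 and -0.064 for XBP1 (turned). The JICD1 median of the XBP1 arm thus has no stable sign. Of its genes, Ern1 (-0.31) and Xbp1 (-0.44) lay below control, and Dnajb9 (0.04), Dnajc3 (0.22) and Edem1 (0.10) above it. Why these genes differ was not tested. The JICD1 values of the ATF6 arm and of the genes of both ER arms turned sign only with the mean.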
